A study of Canis lupus familiaris with 6 samples.

Results

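The ABC transporters of MDCK cells were examined across all 6 arrays. Members were the non-control probes whose gene name in the array design was ABC followed by a letter from A to G and a number. This gave 37 genes among 14228 named on the array, read by 57 of its 43603 probes. All 37 symbols were found in a RefSeq gene table (dog assembly UU_Cfam_GSD_1.0), from which names and gene order were taken and no position.

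MDCK is a line of dog kidney epithelial cells. Every sample was of MDCK cells that carry mCherry-tagged β-catenin Δ131 (β-cat ΔN), a β-catenin without its N-terminus that is always expressed, together with GFP-tagged RasV12 under a tetracycline-inducible promoter. These β-cat ΔN/RasV12 cells were grown alone (single culture, 3 arrays) or in a 10:1 mix in which β-cat ΔN cells without RasV12 surrounded them (mix culture, 3 arrays). All dishes were coated with collagen and held in tetracycline for 24 h, and GFP-positive cells were then sorted for total RNA. Both groups therefore carried β-cat ΔN and had RasV12 switched on, and the surrounding cells were what differed. No source used here says whether replicates came from separate cultures, so p-values measure the spread between these samples, which may be technical.

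ABC transporters are membrane proteins that bind and split ATP to move a substrate across a membrane. Most export drugs, conjugates, lipids or bile salts from the cell, others serve mitochondria, peroxisomes and lysosomes, and the ABCE and ABCF proteins keep the ATP-binding domains but act on ribosomes and translation. ABCB1, also called P-glycoprotein or MDR1, pumps many unrelated drugs out through the apical membrane, and MDCK monolayers are widely used to measure that transport.

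The 60-base probes that carry the main results are shown here, since ABCB1 has several that read separate stretches of its transcript and the dim ABCB11 and ABCC2 signals rest on few. They are printed 5′ to 3′ in lower case, as the array design gives them.
ABCB1 probe P050841: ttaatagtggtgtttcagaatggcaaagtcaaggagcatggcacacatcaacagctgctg
ABCB1 probe P0000019933: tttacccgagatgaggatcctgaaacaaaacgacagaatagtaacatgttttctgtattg
ABCB1 probe P053386: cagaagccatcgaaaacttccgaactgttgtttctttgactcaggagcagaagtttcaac
ABCB4 probe P0000026771: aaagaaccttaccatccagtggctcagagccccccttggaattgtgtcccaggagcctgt
ABCB11 probe P057056: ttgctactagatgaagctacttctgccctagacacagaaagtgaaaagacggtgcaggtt
ABCC2 probe P0000019804: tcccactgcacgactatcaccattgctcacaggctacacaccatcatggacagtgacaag
ABCC2 probe P053601: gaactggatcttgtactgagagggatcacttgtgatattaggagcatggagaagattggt

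In the design's coordinates on CanFam3.1, the ABCB1 probes lie on the minus strand at chr14:13645347-13645406 (P050841), chr14:13683018-13683077 (P0000019933) and chr14:13661702-13661761 (P053386). P050841 starts at nucleotide 3795 and P0000019933 at nucleotide 2286 of transcript NM_001003215, while P053386 was drawn from a partial coding record. The ABCB4 probe lies on the same strand at chr14:13548598-13548657, and ABCB4 and ABCB1 are next to each other in the RefSeq gene order. The ABCB11 probe covers chr36:13747153-13748047 on the minus strand, a span of 895 bases that its 60 bases can fill only across an intron. The ABCC2 probes lie on the plus strand at chr28:12739570-12739629 (P0000019804) and chr28:12735444-12736362 (P053601). Probes of different ABC genes shared at most 13 bases in a row. Probes were compared only with other probes and not with the transcripts of related genes. Whether a probe also binds the transcript of another ABC gene was therefore not tested. The exons and untranslated regions of these genes were not looked up here.

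On the 6 arrays, 61.11% to 65.66% of spots were well above background and the 75th percentile of the signal, to which each array was scaled, was 161.03 to 232.67 intensity units. Replicate 1 of each group lay on slide 1 and the other 4 arrays on slide 2. Slide and culture were thus crossed, and the fit with the slide as a block is given beside the fit without it. All 9 kidney and epithelial marker genes measured, including CDH1 and EPCAM, had a probe well above background on all 6 arrays. So did 4 of 6 leukocyte genes (CD3E, CD79A, CD14 and CD68), 3 of 4 endothelial genes (KDR, PECAM1 and VWF) and 2 of 6 fibroblast genes (COL1A2 and PDGFRB). The leukocyte genes PTPRC and LYZ and the fibroblast genes COL3A1 and DCN were not well above background on any array. Summed over the brightest probe of each of 9 epithelial genes, the signal was 79900 to 109000 intensity units in single culture and 66900 to 85300 in mix culture. For the leukocyte genes these sums were 240.0 to 344 and 239 to 337, for the endothelial genes 917 to 2890 and 843 to 3350, and for the fibroblast genes 136 to 372 and 122 to 340. The sums are of unscaled signal. KRT18 alone gave 52500 to 73500 intensity units in single culture and 42300 to 55700 in mix culture. After scaling, the median log2 change over the 9 epithelial genes was -0.1, and KRT18 was not called (-0.4, slide-block limma adjusted p = 0.173). CDH1 fell with the slide block, with a log2 change of -0.47 (limma adjusted p = 0.0444, and 0.384 without a block). The dimmer TJP1 probe also fell with the slide block (-0.45, limma adjusted p = 0.0396), while the brighter was not called (-0.05, 0.765). The part of these marker levels in the results was not tested. HRAS, the gene of the introduced oncoprotein, differed by -0.62 on the log2 scale (mix minus single culture). Limma did not call it without a block (SE 0.28, adjusted p = 0.608) or with the slide block (SE 0.17, adjusted p = 0.065). The HRAS change was -0.47 on slide 1 and -0.7 on slide 2, and its part in the results was not tested. Whether its probe reads the introduced copy is not stated in the sources used here.

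Of the 57 ABC probes, 39 were well above background on all 6 arrays and 15 on none. Of the 37 genes, 26 had a probe in the first class and 9 had every probe in the second. These 9 were ABCA12, ABCB5, ABCC6, ABCC8, ABCC9, ABCC11, ABCD2, ABCG4 and ABCG5. Background here is the test that Agilent Feature Extraction makes for each spot, and a probe entered the comparison when it passed on every array of at least 1 group. That left 42 probes of 28 genes.

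Mix culture was set against single culture to find the transporter transcripts that change in β-cat ΔN/RasV12 cells with β-cat ΔN neighbours. ABCB1 fell. It was 1 of 2 ABC probes called by limma without a block, among 235 of all 26623 probes tested (0.883%; 0.815% higher and 0.0676% lower), and the other, of ABCB11, had entered the comparison only through mix culture. With the slide block, 8 ABC probes of 7 genes were called, 4 higher and 4 lower, where 7.20% of all probes were called (3.98% higher and 3.22% lower). Those higher were ABCB11, ABCA8, ABCA3 and ABCC2, and those lower were ABCB4, ABCG2 and both tested probes of ABCB1. ABCC2 too had entered only through mix culture, and the dimmer ABCB1 probe only through single culture. Of the 39 ABC probes well above background on all 6 arrays, limma fitted to such probes alone called 1 without a block (0.558% of 25613 probes) and 5 with it (7.22%), and 7 did not overlap between the groups (15.9%). The 5 were of ABCB1, ABCB4, ABCG2, ABCA3 and ABCA8. Over all tested probes, a block on the replicate number called 6 ABC probes, leaving out ABCC2 and ABCG2, and 5.25% of all probes. Signals did not overlap between the groups for 10 of the 42 probes (23.8%), 4 higher and 6 lower in mix culture, against 16.5% of all probes (7.85% higher and 8.66% lower). In sorted bulk RNA, fewer cells that express a gene and less RNA per cell cannot be told apart.

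**Figure D1:**
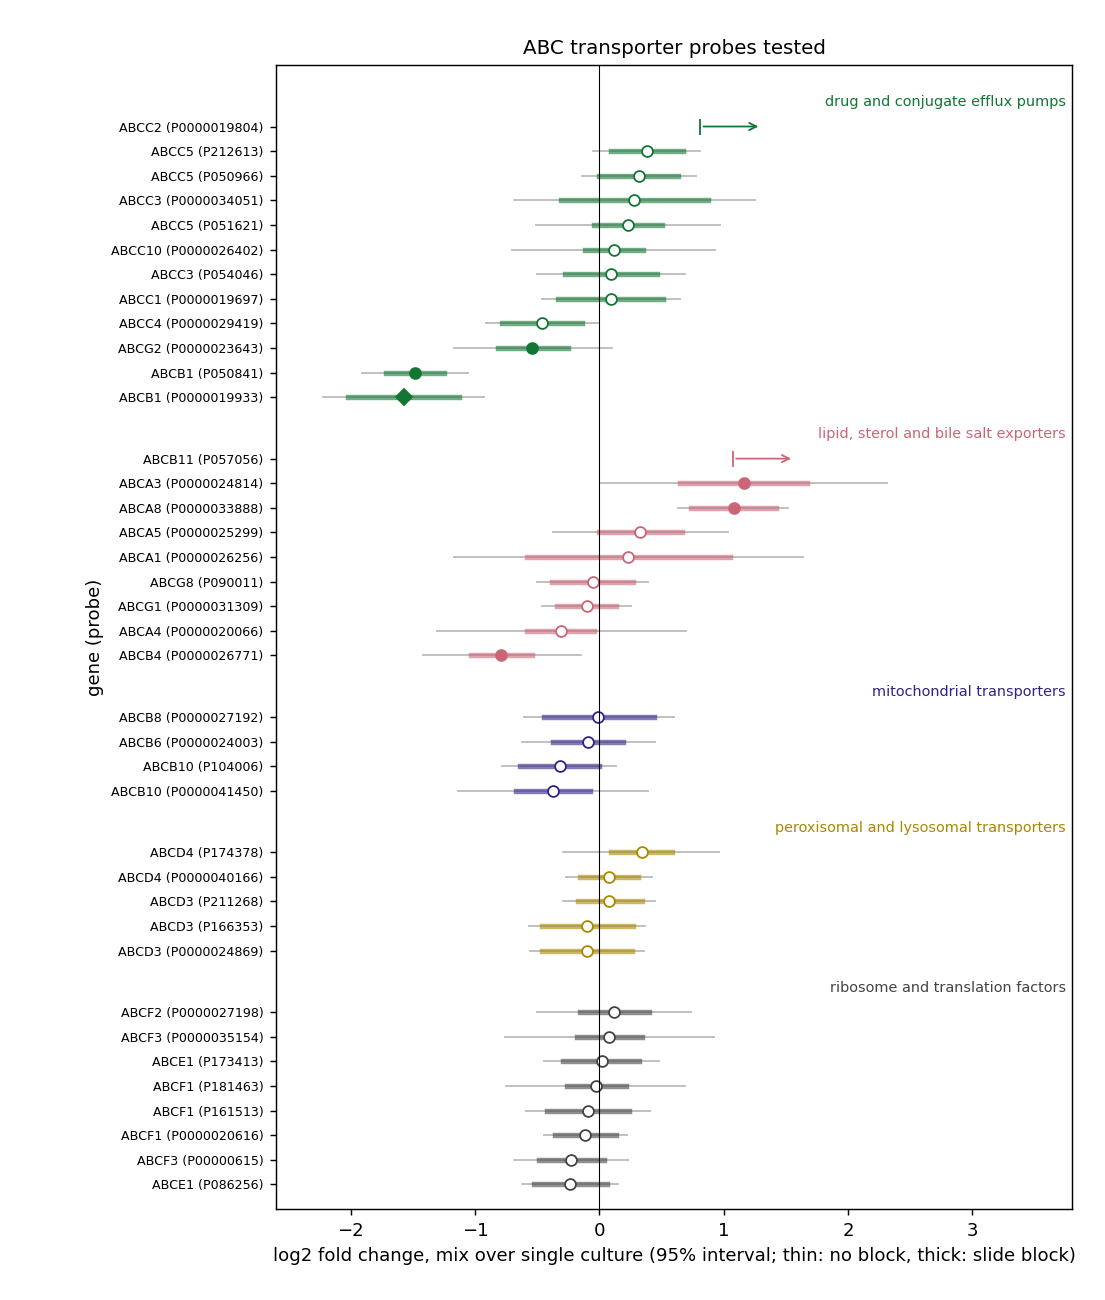
Log2 fold change of 38 of the 42 ABC probes tested, mix over single culture, on the x axis, with genes grouped by role on the y axis. Points are the fitted change (filled where called with the slide block), thin lines the 95% interval without a block and thick lines that with the slide block, while arrows start at the bound of the 2 probes at background in single culture and the diamond is a probe well above background on 1 mix culture array. The ABCB1 probe P050841 sits at -1.48, and the mitochondrial, peroxisomal and ribosome groups have no filled point.

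Over the brightest tested probe of each of the 28 genes, 13 genes had a log2 change above 0 and 15 below. Their median was -0.03, also with ABCB11 and ABCC2 at their bound, beside -0.05 over all 10172 symbols tested. Over the 26 genes with a probe well above background on all 6 arrays the median was -0.05 and the changes ran from -1.48 to 1.16, with 5th and 95th percentiles of -0.73 and 0.89. For the 9893 symbols so measured the median was -0.06 and these percentiles were -0.47 and 0.46.

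Drug and conjugate pumps held 10 genes, of which 8 were tested. ABCB1 fell. The signal of its brightest probe, P050841, was 562, 335 and 374 intensity units in single culture replicates 1, 2 and 3, and 214, 142 and 121 in mix culture. Each mix culture array was below every single culture array. The normalised log2 signal averaged 1.19 ± 0.23 (SD, n = 3) over single culture and -0.29 ± 0.15 (SD, n = 3) over mix culture, a 2.79-fold lower signal. The log2 change was -1.48 (SE 0.18, 95% interval -1.91 to -1.06) with an adjusted p of 0.0140 in limma. The slide block lowered the SE to 0.10 and the adjusted p to 0.000173. It was -1.57 on slide 1 and -1.44 on slide 2. Without a block the call was lost when single culture replicate 3 (adjusted p = 0.0878), mix culture replicate 2 (0.0941) or mix culture replicate 3 (0.0922) was left out. With the slide block it held without any 1 array, with limma adjusted p values from 0.000671 to 0.00276. For every gene, leaving out either slide 1 array under this block gives the same fit, that of slide 2 alone. Those checks are therefore not separate.

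The probe P0000019933, which reads ABCB1 farther upstream, gave 19.2, 9.10 and 16.2 intensity units in single culture and 7.75, 4.54 and 3.49 in mix culture. It was well above background on all 3 single culture arrays and on 1 of 3 mix culture arrays. Its fitted log2 change was -1.57 (SE 0.27), a size that is not exact with the mix culture arrays this dim, with an adjusted p of 0.0641 without a block and 0.00324 with the slide block in limma. The third probe, P053386, was not well above background on any array. Its signal was 2.65 to 3.83 intensity units in single culture and 0.989 to 1.05 in mix culture, and no fold is given for it.

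**Figure D2:**
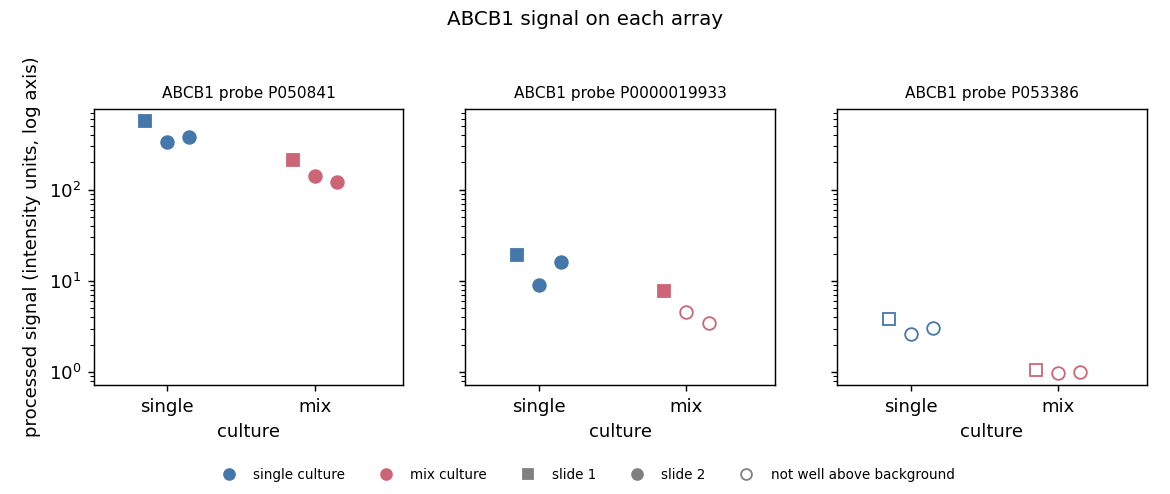
Processed signal of the 3 ABCB1 probes on each array, on a log axis, by culture (squares are slide 1, circles slide 2, open symbols not well above background). In every panel the mix culture arrays lie below the single culture arrays, and only P050841 was well above background on all 6.

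ABCG2, the breast cancer resistance protein, is another apical drug pump. Its signal was 20.6, 12.5 and 11.7 intensity units in single culture and 18.0, 9.30 and 6.77 in mix culture. The groups overlapped, and in each group the slide 1 array was the brightest. Its log2 change of -0.54 was called with the slide block (SE 0.12, limma adjusted p = 0.0416) and not without it (0.686). That call was lost with any 1 of the 6 arrays left out, with adjusted p values of 0.0673 to 0.128. Under normexp background correction with an offset of 50 the change was -0.14. The offset is added to every signal and is larger than those of this probe, so it draws the change towards 0 by construction. For probes this dim, normexp is therefore no check of a change.

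ABCC2, or MRP2, exports conjugates through the apical membrane. Its probe P0000019804 gave 3.92, 0.899 and 1.15 intensity units in single culture, where no array was well above background. In mix culture it gave 5.33, 10.7 and 8.09, and all 3 arrays were. The probe passed the background filter only through mix culture. Only a bound on the group means can be given for a probe at background in one group. For ABCC2 that bound was 1.75-fold higher in mix culture. It does not hold on each slide, since the log2 difference was 0.26 on slide 1 and 3.19 on slide 2. The fitted log2 change was 2.21, a size that is not exact with single culture at background. To this fit, not to the bound, belong the limma adjusted p values of 0.195 without a block and 0.0392 with the slide block. Since the probe was tested only through its bright group, they are no separate support for a difference. The slide-block call was lost when any 1 of the 4 slide 2 arrays was left out (adjusted p 0.0911 to 0.145), and without either slide 1 array the adjusted p was 0.000117. Under normexp the fitted change was 0.07 (limma adjusted p = 0.998), but the offset of 50 exceeds all signals of this probe and draws the change towards 0. The second ABCC2 probe was not well above background on any array, with 1.02 to 1.09 intensity units in single culture and 2.31 to 2.79 in mix culture.

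The other drug and conjugate pumps measured were not called in either fit. ABCC4, which exports cyclic nucleotides and prostaglandins, gave 61.4, 49.6 and 60.0 intensity units in single culture and 44.2, 40.1 and 45.6 in mix culture. Its groups did not overlap, and its log2 change of -0.46 (SE 0.19) had limma adjusted p values of 0.571 without a block and 0.0902 with it. ABCC5, an exporter of cyclic nucleotides, was read by 3 probes with log2 changes of 0.32, 0.23 and 0.38. Its brightest probe gave 567, 340 and 484 intensity units in single culture and 845, 533 and 458 in mix culture, with a slide-block adjusted p of 0.193 in limma. On the normalised scale the groups did not overlap at this probe, while they did at the dimmer probes P051621 and P212613. The brightest probe was printed 5 times on each array. The SD of its spots was 0.018 to 0.096 on the log2 scale, below the SD of 0.26 between single culture arrays.

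ABCC1, a basolateral exporter of glutathione conjugates, gave 89.3, 64.5 and 66.2 intensity units in single culture and 70.9, 96.0 and 78.1 in mix culture. Its groups overlapped, and the within-slide log2 differences had opposite signs, -0.51 on slide 1 and 0.40 on slide 2. ABCC3, a basolateral exporter of glucuronides, gave 132, 355 and 200 intensity units in single culture and 276, 275 and 252 in mix culture. The single culture arrays enclosed all 3 mix culture arrays, and its 95% interval with the slide block was -0.31 to 0.87. ABCC10 differed by 0.12 (slide-block interval -0.12 to 0.35). ABCB5 and ABCC11 were not well above background on any array.

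Exporters of lipids, sterols and bile salts held 12 genes, of which 9 were tested and 4 called with the slide block. ABCB11, known as the bile salt export pump of hepatocytes, gave 5.13, 3.59 and 3.89 intensity units in single culture, where none of the 3 arrays passed the background test. In mix culture it gave 12.6, 10.3 and 7.64, and all 3 passed. The probe thus passed the filter only through mix culture, where its signal was at least 2.10-fold higher. The fitted log2 change was 1.2, a size that is not exact with single culture at background. This fit had a limma adjusted p of 0.0180 without a block and 0.000938 with the slide block. Since the probe was tested only through its bright group, these p values are no separate support for a difference. Without a block the call was lost when single culture replicate 2 (adjusted p = 0.102), single culture replicate 3 (0.136), mix culture replicate 2 (0.12) or mix culture replicate 3 (0.0732) was left out. Under normexp the fitted change of this dim probe was 0.06 (limma adjusted p = 0.998), but here too the offset of 50 exceeds all its signals and draws the change towards 0.

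ABCA8, a lipid transporter, gave 4.55, 5.23 and 4.87 intensity units in single culture and 13.6, 11.3 and 8.04 in mix culture. Every mix culture array was above every single culture array. The log2 change was 1.08 (SE 0.19) with a limma adjusted p of 0.0678 without a block, and 0.00521 with the slide block, where it was called without any 1 array. ABCA3, which loads surfactant lipid into lamellar bodies in the lung, gave 29.7, 53.3 and 39.9 intensity units in single culture and 58.1, 159 and 87.3 in mix culture. After scaling, mix culture replicate 1 fell within the range of single culture, while mix culture was higher on both slides, by 0.79 and 1.35 on the log2 scale. Its change of 1.16 was called with the slide block (SE 0.22, limma adjusted p = 0.0204) and not without it (0.570), and the slide-block call was lost without single culture replicate 3 (0.0838). Under normexp the changes of ABCA8 and ABCA3 were 0.12 and 0.56. The offset of 50, which draws changes towards 0, was above every ABCA8 signal and above some of those of ABCA3.

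ABCB4, the phosphatidylcholine translocator of bile, gave 32.3, 41.1 and 41.9 intensity units in single culture and 21.1, 23.9 and 24.6 in mix culture. All mix culture arrays were below all single culture arrays. The log2 change was -0.79 on both slides, with limma adjusted p values of 0.428 without a block and 0.00465 with it (SE 0.11). Under normexp it was -0.29, with the offset of 50 above all signals of the probe. ABCB1 and its chromosomal neighbour ABCB4 therefore both fell with the slide block. The genes on either side of this pair in the RefSeq order, chosen after their values were seen, were CROT and RUNDC3B. The brightest CROT probe differed by -0.11 (SE 0.17, limma adjusted p = 0.956). RUNDC3B was well above background on 1 array, with 4.74 to 5.68 intensity units in single culture and 1.39 to 2.33 in mix culture, and was not tested.

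ABCA1 and ABCG1, which load cholesterol onto lipoproteins, were not called. ABCA1 gave 26.8, 10.9 and 4.62 intensity units in single culture and 25.6, 7.74 and 12.6 in mix culture. The spread within each group was wider than the difference of 0.23 on the log2 scale, whose slide-block interval was -0.58 to 1.05. ABCG1 gave 33.4, 24.1 and 25.9 intensity units in single culture and 36.2, 23.5 and 22.8 in mix culture, a log2 change of -0.10 (slide-block interval -0.34 to 0.13). ABCA4, ABCA5 and ABCG8 had changes of -0.31, 0.33 and -0.05 and were not called. ABCG8, a subunit of the heterodimer that exports plant sterols, was well above background on all 6 arrays, while its partner ABCG5 was not on any. The ABCG8 signal was dim, at 11.6 to 19.4 intensity units. The leukocyte genes CD3E (7.5 to 14.8) and CD79A (8.91 to 21.3) passed at similar levels, so passing does not by itself show expression.

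**Figure D3:**
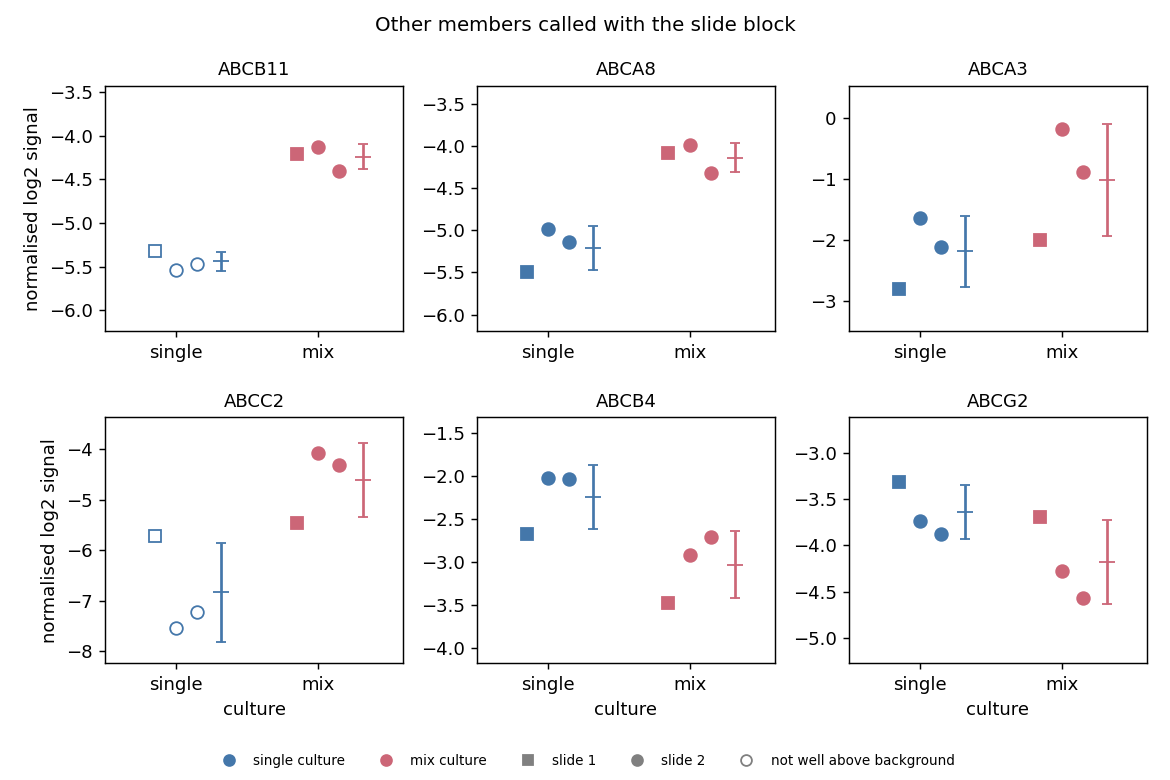
Normalised log2 signal (log2 signal minus the array's 75th percentile) of the other 6 genes called with the slide block, by culture. Squares are slide 1, circles slide 2, open symbols not well above background, and bars the mean ± SD of 3 arrays. ABCA8 and ABCB4 do not overlap between groups, ABCA3 and ABCG2 do, and the single culture arrays of ABCB11 and ABCC2 are all open symbols.

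Of the transporters of mitochondria, ABCB6, ABCB8 and ABCB10 were measured and not called. ABCB6, which carries porphyrins, gave 2960, 1880 and 1610 intensity units in single culture and 3080, 1630 and 1700 in mix culture, and its groups overlapped. The log2 changes were -0.09 for ABCB6 (slide-block interval -0.37 to 0.19) and -0.01 for ABCB8 (-0.45 to 0.44). ABCB10, of the inner membrane, was read by 2 probes that differed by -0.37 and -0.32, with limma slide-block adjusted p values of 0.120 and 0.195.

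The ABCD transporters carry fatty acyl chains into peroxisomes or, for ABCD4, cobalamin out of lysosomes. ABCD3 and ABCD4 were measured and not called, with changes of -0.10 and 0.08 on the log2 scale at their brightest probes. ABCE1, which splits ribosomes for reuse, and ABCF1, ABCF2 and ABCF3, which act in translation, differed by -0.24 to 0.12, and none was called. ABCF1, for example, gave 2520, 1890 and 2140 intensity units in single culture and 2630, 1870 and 1860 in mix culture at its brightest probe, with a slide-block interval of -0.36 to 0.13. No probe of the channel regulators ABCC8 and ABCC9 or of ABCC6 was well above background. Over the 21 tested genes not called with the slide block, probe changes ran from -0.46 to 0.38.

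Of the 39 probes well above background on all 6 arrays, 16 were lower in mix culture on each slide, 13 were higher on each, and 10 had opposite signs.

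**Figure D4:**
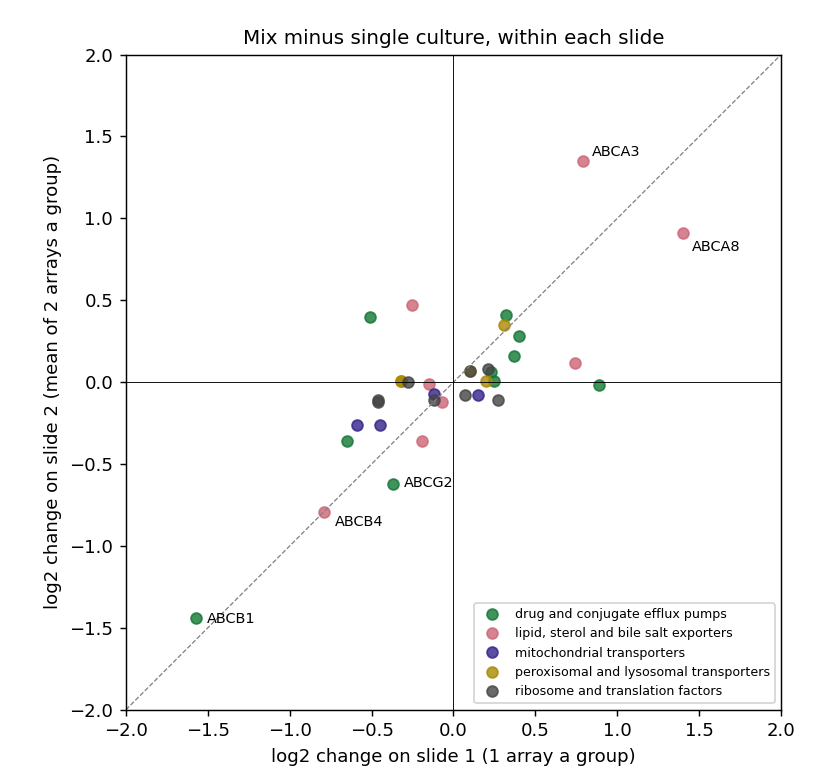
Difference in normalised log2 signal, mix minus single culture, on slide 1 (x axis, 1 array a group) and slide 2 (y axis, mean of 2 arrays a group) for 35 of the 39 ABC probes well above background on all 6 arrays, coloured by role. The ABCB1 and ABCB4 points lie near the dashed line of equal change, ABCB1 at -1.57 and -1.44.

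Genes that work beside the transporters were taken from 11 lists of 69 genes, of which 61 were on the array and 52 were tested. Without a block 1 of the 52 was called, where 0.883% of all probes were. With the slide block 8 were, 6 higher and 2 lower, where 7.20% of all probes were. The genes were counted at their brightest tested probe, while these shares are over probes, dim ones included, so the units differ. TAP1 and TAP2 are ABC transporters under other symbols, and carry peptides into the endoplasmic reticulum for MHC class I. CFTR, the chloride channel of the family, did not pass the background filter. TAP1 gave 2350, 1090 and 1050 intensity units in single culture and 7640, 2750 and 2310 in mix culture. Mix culture was higher on both slides, by 1.52 and 1.23 on the log2 scale, with a limma adjusted p of 0.302 without a block and 0.000490 with it. TAP2 gave 2170, 1010 and 1010 intensity units in single culture and 3570, 1810 and 1500 in mix culture, a log2 change of 0.64 (slide-block adjusted p = 0.00995 in limma). Of their loading partners, TAPBP and B2M were also higher, by 0.88 and 0.93 (slide-block adjusted p = 0.00570 and 0.00228 in limma), while CALR and PDIA3 were not called. One of 4 B2M probes differed by -0.06 and was not called.

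ALAS1, the first enzyme of haem synthesis, gave 1950, 1400 and 1560 intensity units in single culture and 7230, 6860 and 4690 in mix culture. The groups did not overlap. Its log2 change was 1.86 (SE 0.16), with an adjusted p of 0.00409 in limma without a block. FECH, NFS1, GLRX5 and SLC25A37, the other haem and iron-sulfur genes tested, were not called. Of 9 nuclear receptors and lipid regulators tested, PPARA was higher and PPARG and NR1I3 were lower with the slide block, with log2 changes of 1.23, -0.45 and -0.56 (limma adjusted p = 0.00964, 0.0407 and 0.0254). Without a block their limma adjusted p values were 0.521, 0.568 and 0.469. PPARA was well above background on 1 of 3 single culture arrays. Its probe thus entered the comparison only through mix culture, and the size of its change is not exact. None of the tested genes of drug and conjugate metabolism (11), sterol handling (7), the apical scaffold (5), peroxisomes (4), translation (3), organic solute transport (1) or partner channels (1) was called at its brightest probe. In the apical scaffold a dimmer MSN probe was called with the slide block (log2 change -0.67, limma adjusted p = 0.0305). The brightest MSN probe changed by -0.31 (0.187), and the remaining MSN probes were lower and not called.

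**Figure D5:**
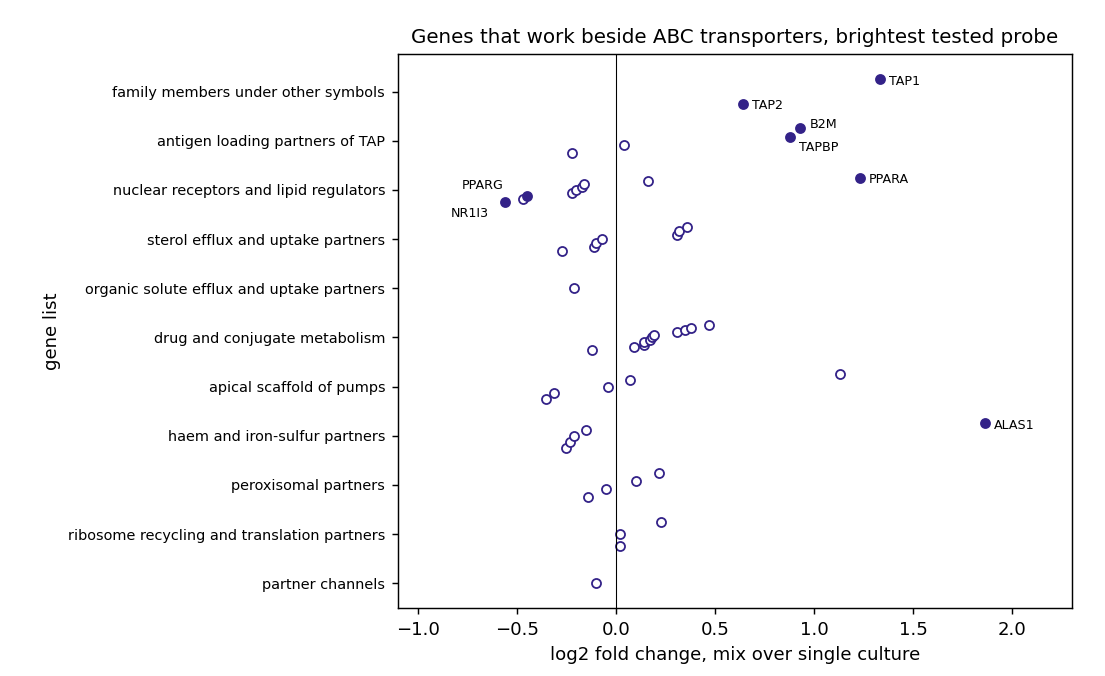
Log2 fold change, mix over single culture, of the brightest tested probe of each of the 52 partner genes (x axis), by list (y axis). Filled points were called with the slide block. ALAS1 is farthest to the right at 1.86, followed by TAP1 at 1.33, and NR1I3 and PPARG are the filled points left of 0.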

How the data were processed

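Linear spot intensity was deposited by the authors, with 1 scanner file per array. Its background had been subtracted within arrays, per the file headers, by Agilent Feature Extraction (11.5.1.1 on slide 1, 12.1.1.1 on slide 2). A table of log2 values, also deposited by the authors without its steps, served as an alternative source. In that table the columns named for mix culture replicates 2 and 3 correlated best with each other's scanner file, which leaves the group comparison as it is.

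Outlier spots were dropped, log2 signal was averaged per probe, and the 75th percentile over an array's probes was taken off. The 26623 probes that passed the background test throughout 1 group or both were fitted with limma 3.58.1 in R 4.3.3 (lmFit, eBayes, two-sided), without a block as the methods' unpaired test implies, and called at a Benjamini-Hochberg adjusted p under 0.05. The script was tested on simulated data. A bound sets the bright group's mean against the mean, over the dim arrays, of the higher of the probe's signal and the array's lowest signal well above background.

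Same-numbered arrays deviated together (r = 0.801, 0.53 and 0.572). On slide 2 the crossed numbers correlated more strongly (0.61 and 0.632), so number and slide are not told apart by this. The values therefore cannot show that arrays were paired by number. The fit without a block was unpaired, and only the replicate block took arrays as paired by number. Some members count in the totals and are not reported here by name. The members and gene lists were chosen with earlier results of these data known. Values on every array are given for members called in either fit, for ABCB1, ABCC1 to ABCC5, ABCG2, ABCA1, ABCG1 and ABCB4 whatever their call, and for members detected in 1 group alone. Partner genes are named where called. Alternatives were other scalings, normexp, filters, blocks, slide 2 alone, the methods' t-test and leaving out arrays. Their number, 6 arrays, limits the precision.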

Additional observations from a re-analysis of the deposited data

How the results depend on the processing

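The count of 2 ABC probes called without a block rose with the slide block to 8, with the replicate block, which pairs same-numbered arrays, to 6, on slide 2 alone to 7 and in the authors' table with the slide block to 6. The shares of all probes called were 7.20%, 5.25%, 3.69% and 6.86%. It was 1 under normexp (0.379% of all probes), whose offset of 50 draws the changes of dim probes such as that of ABCB11 towards 0. It was also 1 when probes had to be well above background on all 6 arrays, which leaves ABCB11 out. Such probes gave 5 with the slide block in a fit added after seeing the data. The methods' t-test gave 6 ABC probes at an unadjusted p under 0.05, where 2590 of all 26623 probes passed. After Benjamini-Hochberg adjustment it gave 0, where 0.03% of all probes were called. Limma without a block gave 9 unadjusted, where 2318 of all probes passed. Leaving out 1 array gave 0 to 3 ABC probes without a block, where 0.323% to 0.909% of all probes were called. In a check chosen after seeing the data, it gave 5 to 7 with the slide block, the fewest without single culture replicate 3. There 2.75% to 5.82% of all probes were called. The partner genes called went from 1 to 8 with the slide block, 7 with the replicate block, 6 on slide 2 alone, 8 in the authors' table and 0 by the methods' t-test. ABCB1 kept its direction throughout, with log2 changes of -1.57 to -1.35 when 1 array was left out, -1.21 under normexp, and an adjusted p of 0.142 by the methods' t-test at -1.48.

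The replicate block called ABCB1 (adjusted p = 0.000626 at -1.48), ABCB11, ABCB4, ABCA3 and ABCA8, but not ABCC2 (0.0601) or ABCG2 (0.0520). Signs reversed only among the uncalled genes with values given: ABCA1 was -0.03 under normexp and ran from -0.36 to 0.78 with 1 array left out, ABCC1 from -0.06 to 0.34, and ABCC3 from -0.15 to 0.71, with -0.02 on slide 2 alone. The family median stayed between -0.11 (slide block without mix culture replicate 3) and 0.05 under the scalings, filters, blocks and left-out arrays tried. The cause of these differences was not tested. Signal over background limits ABCB11, ABCC2, ABCA8 and the dimmer ABCB1 probes, which lie near the lowest signals well above background, 4.19 to 4.48 intensity units.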
